A study of Mus musculus with 10 samples.

Results

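Glucose breakdown and the transcriptional answer to low oxygen share many genes, and 34 of them were followed here in mouse embryonic stem (ES) cells and their differentiated progeny, without and with EBIO. EBIO opens calcium-activated potassium channels. The members were listed by name: 3 transporters, 17 glycolytic enzymes, 4 regulators of flux and 10 hypoxia genes outside glycolysis. A probe set annotated with 1 gene symbol was found for 32 of the 34, out of 18194 genes on the arrays, and a gene with several probe sets was read from its brightest one, by the mean of all 10 arrays. Gpi1 and Eno1, which make glucose phosphate isomerase and the common enolase, were not analysed here. Gapdh was read from the arrays' own control probe sets, because its other probe sets carry several symbols.

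All groups came from the CGR8 line of mouse strain SV129. Untreated ES cells (n = 3) and ES cells given 1 mM EBIO over 3 days (n = 3) were taken at passages 25, 26 and 27, 1 array of each group per passage. The differentiated groups had passed 5 days as embryoid bodies, followed by 10 days of culture without EBIO (n = 2) or with it (n = 2), and the labels state no dose for them. Samples within a group are independent experiments, by the design text of the series. Each group comes from 1 line, and a differentiated culture is a mixture of cell types.

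In glycolysis, cells take up glucose through facilitative transporters, trap it by phosphorylation, split it and recover energy as pyruvate forms. Pyruvate then becomes lactate through lactate dehydrogenase and leaves through monocarboxylate transporters, or enters mitochondria through pyruvate dehydrogenase. When oxygen is scarce, the prolyl hydroxylases that mark hypoxia-inducible factor for degradation slow down, and the stabilised factor raises many glycolytic genes together with genes of blood supply, matrix and mitochondrial removal. Pluripotent cells in culture are known for a high rate of glycolysis, whereas heart muscle cells burn mainly fatty acids and carry muscle-type isoforms of several glycolytic enzymes.

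Values are log2 expression levels, and a difference of 1 is a 2-fold change. The arrays of the ES cells and of the differentiated cells had been normalized as separate sets, with untreated arrays centred near a median of 4.58 for ES cells and 5.67 for differentiated cells, so EBIO was compared with its control within a stage. Replicate arrays of a group correlated at 0.982 or more over all probe sets. The mean level of 8 pluripotency markers lay between 11.34 and 11.60 on the untreated ES arrays and between 7.29 and 7.69 with EBIO, with 8 of 8 lower. The mean of 8 cardiomyocyte markers lay between 9.41 and 9.54 on the untreated differentiated arrays and between 13.19 and 13.23 with EBIO, with 8 of 8 higher. Labels and markers therefore match for untreated ES cells, while in the ES cells given EBIO the markers that define their labelled type were lower, with 7 of 8 still above the array median on all arrays.

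More members rose than fell with EBIO in ES cells, and more fell than rose in differentiated cells. In ES cells, 14 of the 32 members (43.8%) rose and 5 (15.6%) fell (limma, Benjamini-Hochberg adjusted p under 0.05), against 23.5% and 21.2% of all genes tested. The median difference over the members was 0.43, beside -0.04 over all genes. In differentiated cells 9 members (28.1%) rose and 19 (59.4%) fell, against 33.3% and 32.6% of all genes tested, and the median difference was -0.72, beside 0.02 over all genes. Changes of at least 2-fold numbered 7 upward and 3 downward in ES cells, where 10.1% and 8.00% of all genes passed. They numbered 3 upward and 10 downward in differentiated cells, where 6.31% and 12.4% passed. All 32 members passed the filter on dim probe sets in each stage; Pfkfb3 did so in ES cells only through the arrays with EBIO, and Slc16a3 in differentiated cells only through the untreated arrays, so a difference in these 2 was built into the filter.

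**Figure D1:**
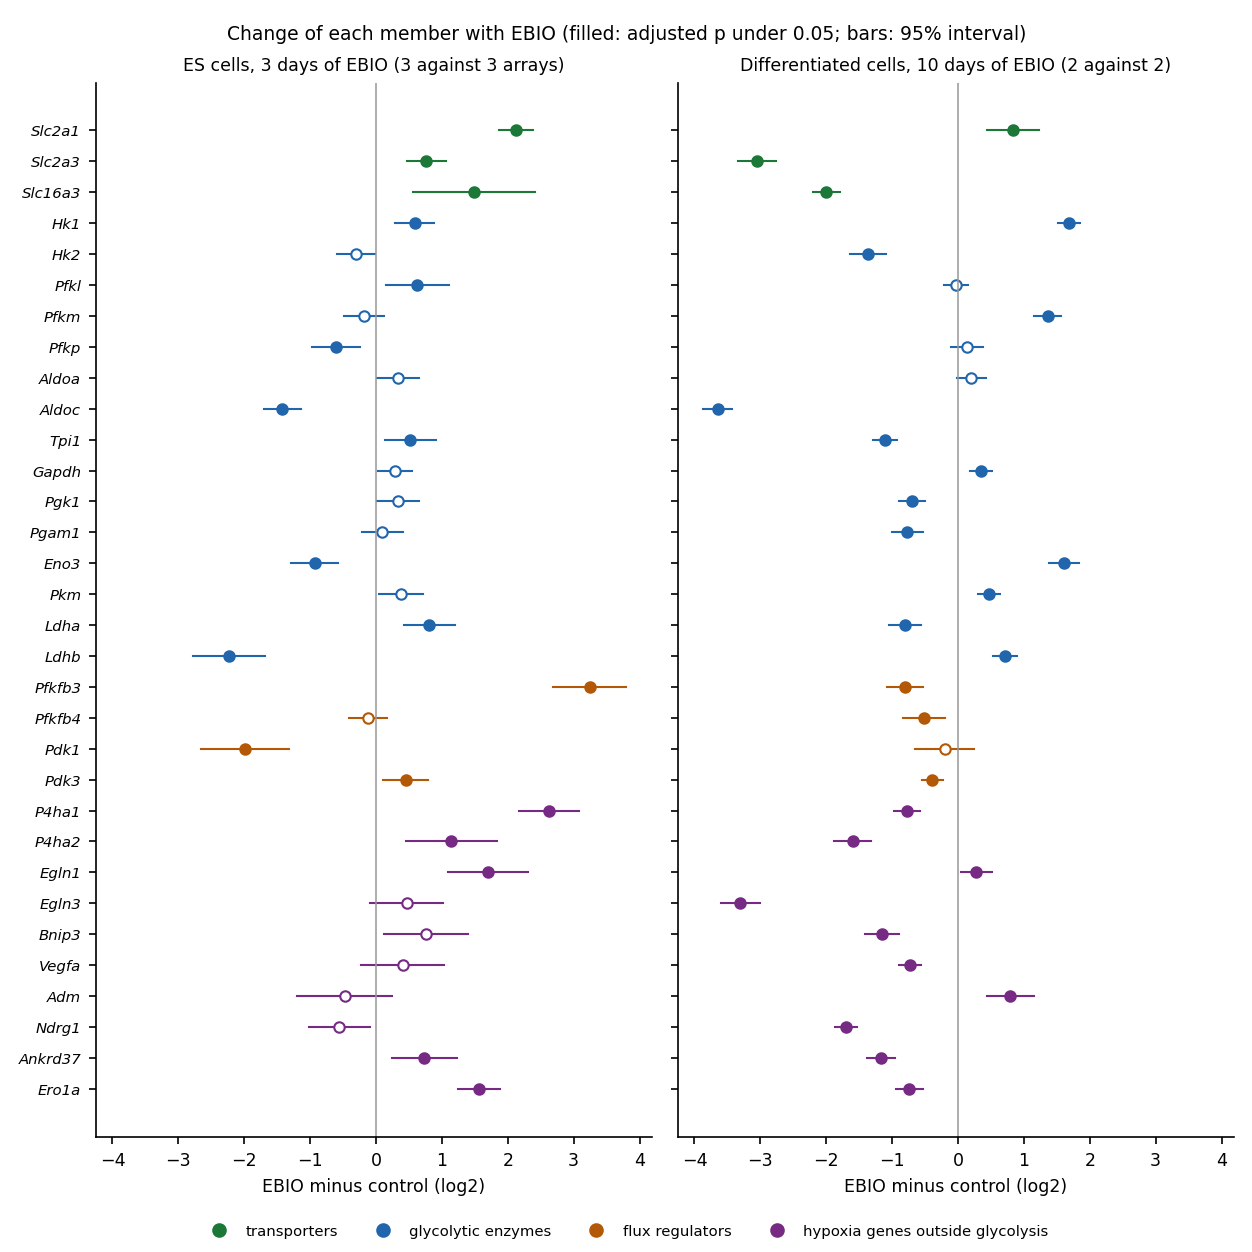
Difference between EBIO and control on the log2 scale for each of the 32 members, in ES cells (left, 3 against 3 arrays) and in differentiated cells (right, 2 against 2), coloured by role; points are fitted differences, bars 95% intervals, and filled points passed an adjusted p of 0.05. Filled points lie mainly right of 0 in ES cells (14 against 5) and mainly left of it in differentiated cells (19 against 9).

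The 3 transporters rose in ES cells. Slc2a1, the glucose transporter of most dividing cells, read 11.10, 11.07 and 11.16 without EBIO and 13.30, 13.17 and 13.23 with it. The groups lay far apart, with a difference of 2.12 ± 0.11 (SE), or 4.36-fold (adjusted p = 3.04e-06). Slc2a3, a high-affinity glucose transporter, read 12.56, 12.47 and 12.23 without EBIO and 13.24, 13.10 and 13.21 with it. Its levels were already near the top of the scale and rose by 0.76 ± 0.13 (adjusted p = 0.00157). Slc16a3, which exports lactate, read 6.66, 6.34 and 6.22 without EBIO and 9.01, 7.37 and 7.31 with it, a rise of 1.49 ± 0.41 (adjusted p = 0.0163). The passage 25 array with EBIO was the highest of the 6 for Slc16a3, and without that array the rise was 0.93. Without the passage 26 control array the adjusted p was 0.0583.

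In differentiated cells the transporters parted. Slc2a1 read 12.04 and 11.56 without EBIO and 12.62 and 12.67 with it, and rose again, by 0.84 ± 0.16 (adjusted p = 0.00489). Slc2a3 fell, reading 11.41 and 11.50 without EBIO and 8.26 and 8.56 with it. That is a difference of -3.05 ± 0.12, or 8.26-fold (adjusted p = 1.03e-05), the third largest fall among the members. Slc16a3 read 6.79 and 6.73 without EBIO and 4.84 and 4.68 with it, a difference of -2.00 ± 0.08 (adjusted p = 1.41e-05). Both arrays with EBIO were below their own median for Slc16a3, where the scale is compressed, so the fall may be understated.

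Among the 15 measured glycolytic enzymes, 4 rose and 4 fell in ES cells, beside 23.5% and 21.2% of all genes. In differentiated cells 6 rose and 6 fell, beside 33.3% and 32.6%. At the first step, Hk1, the general hexokinase, rose in both stages, and Hk2, the inducible muscle-type hexokinase, fell in differentiated cells. In ES cells Hk1 read 7.57, 7.78 and 7.53 without EBIO and 8.28, 8.27 and 8.09 with it, a rise of 0.59 ± 0.13 (adjusted p = 0.00560). In differentiated cells it read 9.02 and 9.06 without EBIO and 10.74 and 10.70 with it, a rise of 1.68 ± 0.07 or 3.21-fold (adjusted p = 1.33e-05). The groups did not overlap in either stage. Hk2 read 10.62, 10.41 and 10.64 without EBIO and 10.34, 10.16 and 10.27 with it in ES cells, a difference of -0.30 ± 0.13 that did not pass (adjusted p = 0.0839; 0.0456 with the passage as a block). In differentiated cells Hk2 read 9.98 and 9.85 without EBIO and 8.42 and 8.68 with it, a fall of 2.58-fold (adjusted p = 1.49e-04).

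The subunits of phosphofructokinase, the main control point of the pathway, each took their own course. Pfkl, the liver-type subunit, rose in ES cells, reading 10.41, 9.97 and 10.04 without EBIO and 11.20, 10.50 and 10.59 with it. The rise was 0.63 ± 0.21 (adjusted p = 0.0371) and rested on single arrays, with an adjusted p of 0.120 without the passage 25 EBIO array, 0.130 without the passage 26 control and 0.0638 without the passage 27 control. It was 0.0744 when the probe sets of Pfkl were averaged, and 0.0573 with no filter on dim probe sets. Pfkp, the platelet-type subunit, fell in ES cells, reading 9.13, 9.31 and 9.04 without EBIO and 8.81, 8.54 and 8.28 with it. Its difference was -0.61 ± 0.16 (adjusted p = 0.0129; 0.0560 without the passage 26 control array). In differentiated cells neither passed, at -0.03 ± 0.07 for Pfkl and 0.13 ± 0.10 for Pfkp. Pfkm, the muscle-type subunit, differed by -0.19 ± 0.13 in ES cells, where the groups overlapped. In differentiated cells it rose, reading 9.26 and 9.15 without EBIO and 10.52 and 10.61 with it. The rise was 2.56-fold (adjusted p = 4.84e-05).

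Of the aldolases, Aldoc, the brain-type form, fell in both stages and had the largest fall of any member. It read 7.29, 7.46 and 7.52 without EBIO and 5.92, 6.09 and 6.003 with it in ES cells, a difference of -1.42 ± 0.12 (adjusted p = 3.60e-05). In differentiated cells it read 9.65 and 9.63 without EBIO and 6.10 and 5.89 with it, a fall of 12.5-fold (adjusted p = 2.80e-06). Aldoa, the common and muscle form, passed in neither stage, with 0.33 ± 0.14 in ES cells (adjusted p = 0.0797; 0.0286 with the passage as a block) and 0.20 ± 0.09 in differentiated cells (adjusted p = 0.0911). Averaging the Aldoa probe sets gave a rise in differentiated cells (adjusted p = 0.0321), and over all probe sets 2 of its 4 other ones rose there (0.0311 and 0.0241).

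The middle steps gave small differences in ES cells, and 3 of these enzymes fell in differentiated cells. Tpi1, triosephosphate isomerase, read 11.34, 11.05 and 11.51 without EBIO and 12.05, 11.58 and 11.84 with it in ES cells, a rise of 0.52 ± 0.17 (adjusted p = 0.0347). Leaving out any of 4 single arrays (the passage 25 or 27 EBIO array, or the passage 25 or 26 control) ended this call, with an adjusted p of up to 0.133, as did averaging its probe sets (0.0606). In differentiated cells Tpi1 read 12.88 and 12.77 without EBIO and 11.70 and 11.73 with it, a fall of 2.15-fold (adjusted p = 7.85e-05). Pgk1, the first enzyme to yield ATP, differed by 0.34 ± 0.14 in ES cells without passing (adjusted p = 0.0798; 0.0304 with the passage as a block). In differentiated cells Pgk1 read 12.87 and 12.82 without EBIO and 12.08 and 12.21 with it, a fall of 1.62-fold (adjusted p = 5.56e-04). The groups did not overlap for either enzyme in either stage. Pgam1, the common phosphoglycerate mutase, overlapped between the ES groups. It fell in differentiated cells, where it read 11.66 and 11.51 without EBIO and 10.74 and 10.89 with it (difference -0.77 ± 0.09, adjusted p = 8.05e-04).

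Gapdh and Pkm, the enzymes for glyceraldehyde phosphate oxidation and for pyruvate formation, rose slightly in differentiated cells. Gapdh read 13.58 and 13.58 without EBIO and 13.91 and 13.94 with it, a difference of 0.35 ± 0.07 (adjusted p = 0.00521). These values are near the highest on the arrays (14.60), close to the upper end of the scale. In ES cells Gapdh read 13.20, 13.17 and 13.23 without EBIO and 13.52, 13.44 and 13.50 with it, a separation of 0.29 ± 0.11 that missed the threshold (adjusted p = 0.0630) although the arrays did not overlap; it passed under 7 of the alternatives, with an adjusted p between 0.00269 and 0.0476. Pkm read 11.24 and 11.17 without EBIO and 11.68 and 11.67 with it in differentiated cells, a rise of 0.47 ± 0.07 (adjusted p = 0.00178). In ES cells it differed by 0.38 ± 0.15 (adjusted p = 0.0655; 0.0195 with the passage as a block).

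Eno3, the muscle enolase, and the lactate dehydrogenase subunits changed sign between the stages. Eno3 read 7.53, 7.33 and 7.82 without EBIO and 6.51, 6.62 and 6.76 with it in ES cells, a difference of -0.93 ± 0.15 (adjusted p = 0.00126). In differentiated cells Eno3 read 9.02 and 8.83 without EBIO and 10.49 and 10.58 with it, a 3.06-fold rise (adjusted p = 4.17e-05). Ldha, the subunit that favours lactate formation, read 11.57, 11.28 and 11.74 without EBIO and 12.60, 12.17 and 12.25 with it in ES cells, a rise of 0.81 ± 0.17 (adjusted p = 0.00433). It was lowest on the passage 26 control array and highest on the passage 25 EBIO array, and the groups did not overlap. In differentiated cells Ldha read 12.51 and 12.38 without EBIO and 11.54 and 11.75 with it, a fall of 1.74-fold (adjusted p = 8.83e-04).

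Ldhb, the heart-type subunit, which favours lactate use, did the reverse. It read 11.76, 11.62 and 10.78 without EBIO and 9.26, 9.17 and 9.05 with it in ES cells, a fall of 4.69-fold (adjusted p = 1.21e-04) and the largest fall of any member there. The passage 27 control array was the lowest of the 3 controls and was still far above every array with EBIO. In differentiated cells Ldhb read 11.35 and 11.44 without EBIO and 12.09 and 12.12 with it, a rise of 0.71 ± 0.07 (adjusted p = 3.98e-04).

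**Figure D2:**
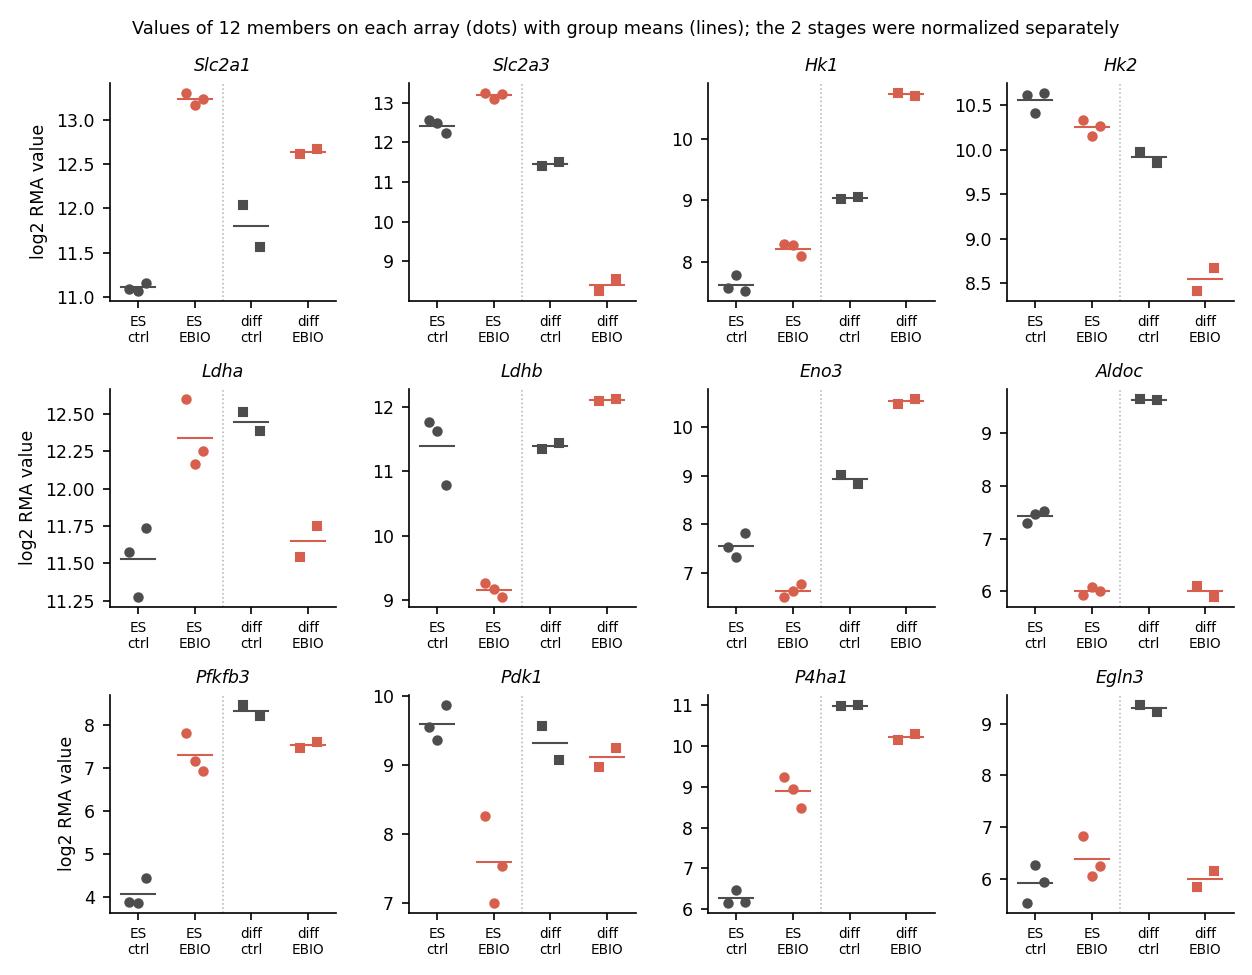
Log2 level of 12 members on each of the 10 arrays, with untreated arrays in grey, arrays with EBIO in red, circles for ES cells, squares for differentiated cells and a line at each group mean; the dotted line parts the 2 stages, which were normalized separately. Ldha and Ldhb run opposite to each other in both stages, and Slc2a3, Pfkfb3 and P4ha1 rise in ES cells and fall in differentiated cells.

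The 4 flux regulators held both the largest rise and one of the largest falls in ES cells. Pfkfb3, which makes the allosteric activator of phosphofructokinase, read 3.88, 3.86 and 4.42 without EBIO and 7.80, 7.16 and 6.93 with it. Its rise of 3.24 ± 0.24 (9.48-fold, adjusted p = 1.69e-05) was the largest of any member in ES cells, and since all 3 control arrays were below their own median it may be understated. A second probe set of Pfkfb3, dimmer over all 10 arrays, was the brighter one in untreated ES cells, with a mean of 5.51 against 4.06. It differed by 0.32 there and did not pass when all probe sets were tested (adjusted p = 0.282). The size of the rise therefore depends on the probe set. In differentiated cells Pfkfb3 read 8.47 and 8.20 without EBIO and 7.46 and 7.59 with it, a fall of 1.75-fold (adjusted p = 0.00132). Pfkfb4, its relative, overlapped between the ES groups and read 7.09 and 7.20 without EBIO and 6.81 and 6.45 with it in differentiated cells. The difference of -0.52 ± 0.13 (adjusted p = 0.0149) had an adjusted p of 0.0532 and 0.0903 without the first or the second control array.

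Pdk1 and Pdk3 are kinases that switch off pyruvate dehydrogenase, and they moved apart in ES cells. Pdk1 read 9.55, 9.36 and 9.87 without EBIO and 8.27, 7.00 and 7.53 with it, a fall of 3.98-fold (adjusted p = 6.49e-04). The passage 25 array was the highest of those with EBIO, yet below all controls. In differentiated cells the groups overlapped for Pdk1 (difference -0.20 ± 0.18, adjusted p = 0.363). When each probe set was tested on its own, another Pdk1 probe set fell there (-0.31, adjusted p = 0.0207). A further one did not pass (0.02). Pdk3 read 7.44, 7.51 and 7.91 without EBIO and 7.97, 8.10 and 8.14 with it in ES cells, a rise of 0.45 ± 0.15 (adjusted p = 0.0385). This call was lost without any 1 of the 3 EBIO arrays or of the passage 25 and 26 control arrays (adjusted p up to 0.128). It was also lost after quantile normalization of the ES arrays alone (adjusted p = 0.0960). Pdk3 read 10.00 and 9.98 without EBIO and 9.60 and 9.61 with it in differentiated cells, a difference of -0.39 ± 0.07 (adjusted p = 0.00335).

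Of the 10 hypoxia genes outside glycolysis, 5 rose and none fell in ES cells (1 rose less than 2-fold), beside 23.5% and 21.2% of all genes. In differentiated cells 2 rose and 8 fell, beside 33.3% and 32.6%. With the passage as a block, 1 more of these 10 rose in ES cells and 2 fell: Bnip3 upward and Adm and Ndrg1 downward. Shares of all genes were not counted in that fit. P4ha1 and P4ha2 make the catalytic subunits of the collagen prolyl hydroxylases. P4ha1 read 6.15, 6.47 and 6.18 without EBIO and 9.25, 8.95 and 8.48 with it, a rise of 2.62 ± 0.20 or 6.16-fold (adjusted p = 1.88e-05). The ranges were more than 2 units apart in ES cells; in differentiated cells they were less than 1 apart, at 10.98 and 11.01 without EBIO and 10.16 and 10.29 with it (difference -0.77 ± 0.08, adjusted p = 3.72e-04). P4ha2 read 5.10, 5.46 and 5.70 without EBIO and 7.10, 5.83 and 6.76 with it in ES cells, a rise of 1.14 ± 0.31 (adjusted p = 0.0145). The passage 26 array with EBIO lay just above the controls. The adjusted p was 0.0519 without the passage 25 EBIO array and 0.0514 without the passage 25 control. In differentiated cells P4ha2 read 10.45 and 10.13 without EBIO and 8.68 and 8.69 with it, a fall of 3.03-fold (adjusted p = 1.02e-04).

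Egln1 and Egln3 are the oxygen-sensing prolyl hydroxylases that act on hypoxia-inducible factor, and both are themselves raised by it. Egln1 read 6.16, 6.65 and 6.52 without EBIO and 8.79, 7.75 and 7.90 with it in ES cells, a rise of 3.25-fold (adjusted p = 9.38e-04). In differentiated cells it read 9.91 and 9.76 without EBIO and 10.02 and 10.19 with it, and the small rise of 0.27 ± 0.09 (adjusted p = 0.0455) depends on the probe set. The mean of both Egln1 probe sets gave -0.03 (adjusted p = 0.791), because the second one fell by 0.33 (adjusted p = 0.0253 over all probe sets). Leaving out the second EBIO array or either control array ended this call as well (adjusted p up to 0.213), as did a fit on the 4 groups together (0.502), no filter on dim probe sets (0.0750) and quantile normalization (0.0510). Egln3 overlapped between the ES groups, with 0.46 ± 0.24 (adjusted p = 0.155). In differentiated cells Egln3 read 9.37 and 9.23 without EBIO and 5.84 and 6.15 with it, a fall of 9.88-fold (adjusted p = 9.23e-06).

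Ankrd37, a known target of hypoxia-inducible factor, and Ero1a, which oxidises proteins in the endoplasmic reticulum, followed the P4ha pattern. Ankrd37 read 4.38, 4.66 and 4.77 without EBIO and 5.66, 4.85 and 5.49 with it in ES cells, with 1 control array below its own median (difference 0.73 ± 0.22, adjusted p = 0.0227). Without the passage 25 or 27 EBIO array, or the passage 25 or 26 control, its adjusted p was between 0.0589 and 0.0887. In differentiated cells Ankrd37 read 7.39 and 7.30 without EBIO and 6.10 and 6.25 with it, a fall of 2.25-fold (adjusted p = 1.01e-04). The groups did not overlap in either stage. Ero1a read 7.93, 8.00 and 7.86 without EBIO and 9.73, 9.36 and 9.40 with it in ES cells, a rise of 2.96-fold (adjusted p = 3.92e-05). It read 10.50 and 10.38 without EBIO and 9.64 and 9.77 with it in differentiated cells, a difference of -0.74 ± 0.08 (adjusted p = 6.34e-04).

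Bnip3, Vegfa, Adm and Ndrg1 passed in differentiated cells but not in ES cells, though overlapping ranges in ES cells do not show that they stayed the same. Bnip3, a receptor for removal of mitochondria, read 11.59 and 11.54 without EBIO and 10.29 and 10.55 with it in differentiated cells, a fall of 2.22-fold (adjusted p = 2.49e-04). In ES cells it differed by 0.76 ± 0.28 (adjusted p = 0.0565; 0.00384 with the passage as a block, and 0.0141 without the passage 26 EBIO array). Vegfa, the main growth factor of blood vessels, read 7.55 and 7.58 without EBIO and 6.85 and 6.81 with it, a difference of -0.73 ± 0.07 (adjusted p = 2.64e-04). In ES cells Vegfa differed by 0.41 ± 0.28 with a 95% interval from -0.22 to 1.04.

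Adm, which makes the vessel-dilating peptide adrenomedullin, was the one hypoxia gene besides Egln1 to rise in differentiated cells. It read 8.32 and 8.00 without EBIO and 8.82 and 9.10 with it, a rise of 1.73-fold (adjusted p = 0.00408). The adjusted p of Adm was 0.103 in a fit on the 4 groups together, which also ended the calls of Vegfa (0.0716) and Pdk3 (0.0686) in differentiated cells. In ES cells Adm differed by -0.48 ± 0.32 (adjusted p = 0.263; 0.00945 with the passage as a block, and 0.0312 without the passage 27 control). The other probe set of Adm, too dim to be tested in ES cells, differed there by 0.08. Ndrg1, a stress- and differentiation-responsive gene, read 9.63 and 9.58 without EBIO and 7.90 and 7.91 with it in differentiated cells, a fall of 3.24-fold (adjusted p = 1.24e-05). In ES cells Ndrg1 differed by -0.56 ± 0.20 (adjusted p = 0.0528; 0.0127 with the passage as a block, and 0.00280 without the passage 27 control). When each probe set was tested on its own, 3 of the 4 other probe sets of Ndrg1 fell in ES cells.

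The ES arrays of 1 passage form pairs, and the differences within the pairs are given as a description. All 19 members past the threshold in ES cells moved in the same direction in passages 25, 26 and 27. Their groups did not overlap on these same arrays, so the shared direction was fixed by that and adds no support. Of the 14 that rose, 12 (85.7%) had their largest difference at passage 25, beside 51.3% of the 2846 genes that rose in all. The median difference of the 14 was 1.54 at passage 25, 0.76 at passage 26 and 1.02 at passage 27. For Egln1 the 3 differences were 2.63, 1.10 and 1.37, and for P4ha2 they were 2.00, 0.37 and 1.06. With the passage as a block, 18 members rose and 8 fell in place of 14 and 5, adding Aldoa, Pgk1, Pkm and Bnip3 upward and Hk2, Adm and Ndrg1 downward. Without the passage 25 EBIO array, or without the passage 26 control array, 9 members rose. Shares of all genes were counted only without a block and with every array, so these counts have none beside them. The passages were 1 pair each, so a passage and its pair of arrays cannot be told apart.

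**Figure D3:**
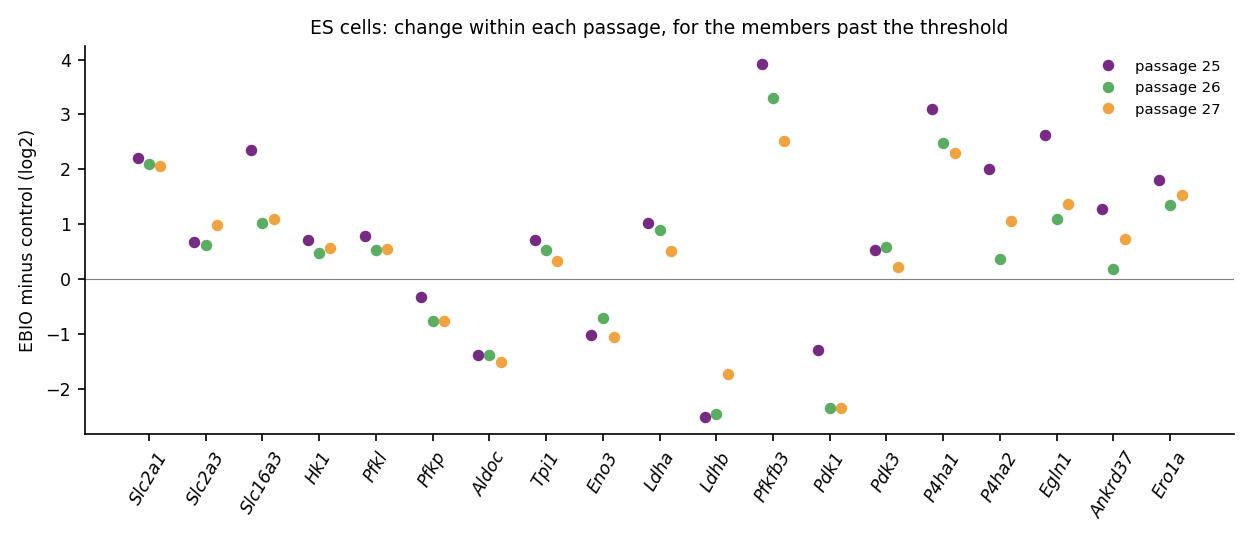
Difference between EBIO and control on the log2 scale within each passage of ES cells, for the 19 members past the threshold, with 1 point per passage. For 12 of the 14 that rose, the passage 25 point is the highest; the Slc2a1 points nearly coincide (2.21, 2.10 and 2.07).

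Levels of markers of other cell types moved with these changes, and their part in them was not tested. In ES cells the mean of 4 smooth muscle markers was between 5.22 and 6.12 without EBIO and between 8.36 and 8.57 with it, and 3 of 3 tested rose, as they did in differentiated cells (9.07 to 9.10 against 9.99 to 10.04). The 4 epithelial markers had means from 8.27 to 8.67 without EBIO and from 9.69 to 10.11 with it in ES cells, where 2 rose, Krt19 by 3.78 and Cldn6 by 1.88, and 1 fell. Of the skeletal muscle list, the actin Acta1 rose there by 4.12, Ckm (-0.23) did not pass and 4 were too dim to be tested. Of 5 neural markers 2 rose, and Map2 among them entered the test only through the arrays with EBIO. Of the endothelial list, Pecam1 (-2.92) and Tek (-1.24) fell, Kdr (0.06) did not pass and 2 were not tested. Tek entered only through the untreated arrays. Of 4 tested macrophage markers, Laptm5 (-4.42) fell and 3 did not pass. Pecam1 and Laptm5 were above the array median in untreated ES cells themselves (means 7.68 and 9.11). In differentiated cells, 6 of 6 fibroblast markers fell, with array means from 12.96 to 12.99 without EBIO and from 7.59 to 7.70 with it. The 6 macrophage markers had means from 10.95 to 11.16 without EBIO and from 4.40 to 4.42 with it, when none was above its array's median on all arrays. The 5 endothelial markers (7.79 to 7.80 against 4.65 to 4.70), the 5 liver and endoderm markers (9.04 to 9.27 against 5.29 to 5.42) and the 4 epithelial markers (9.64 to 9.74 against 6.56 to 6.75) fell as well. In differentiated cells, 3 of 4 tested neural markers and 2 of 3 tested skeletal muscle markers rose. No erythroid marker was bright enough to be tested there. Map2 and Myh8 entered this test only through the arrays with EBIO. The 6 macrophage markers, Pecam1, Cdh5, Tek, Emcn, Lum, Afp and Alb entered it only through the untreated arrays. Differences in such markers were built into the filter. Beside these counts, 23.5% of all genes tested rose and 21.2% fell in ES cells, and 33.3% and 32.6% did so in differentiated cells. In bulk RNA, fewer cells of a type and less RNA of a gene per cell cannot be told apart.

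The change with EBIO differed between the stages for 27 of the 32 members, tested as the EBIO effect in differentiated cells minus that in ES cells in 1 limma fit on the 4 groups. It was lower in differentiated cells for 20 members and higher for 7, beside 25.0% and 20.5% of all genes tested. Pfkfb3 had the widest gap (-4.05 ± 0.35, adjusted p = 3.81e-06), followed by Slc2a3 (-3.81 ± 0.19, adjusted p = 6.70e-08) and Egln3 (-3.77 ± 0.34, adjusted p = 6.52e-06). Ldhb (2.94 ± 0.33, adjusted p = 3.26e-05) and Eno3 (2.54 ± 0.21, adjusted p = 3.25e-06) led in the other direction. The gap of Pfkfb3 depends on the probe set. Its second probe set differed by 0.32 in ES cells and by -0.13 in differentiated cells, where it was too dim to be tested. Of the hypoxia genes outside glycolysis, 9 of 10 were among the 20, and Adm was the exception. Vegfa, Adm and Pfkp lost this call without single arrays. The 5 without a call were Pfkl, Aldoa, Gapdh, Pkm and Pfkfb4.

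Separate calls crossed for 12 members. Slc2a3, Slc16a3, Tpi1, Ldha, Pfkfb3, Pdk3, P4ha1, P4ha2, Ankrd37 and Ero1a rose in ES cells and fell in differentiated cells. These 10 are 31.2% of the 32, beside 6.60% of the 10926 genes tested in both stages. Eno3 and Ldhb did the opposite, which is 6.25% of the members, beside 4.74% of all genes. Slc2a1 and Hk1 rose in both stages, and Aldoc fell in both. Egln1 was called higher in both, but in differentiated cells its second probe set fell. Among the 10 named first, Slc16a3, Tpi1, Pdk3, P4ha2 and Ankrd37 lost their call in ES cells without certain single arrays. A difference was built into the filter for Pfkfb3 in ES cells and for Slc16a3 in differentiated cells.

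**Figure D4:**
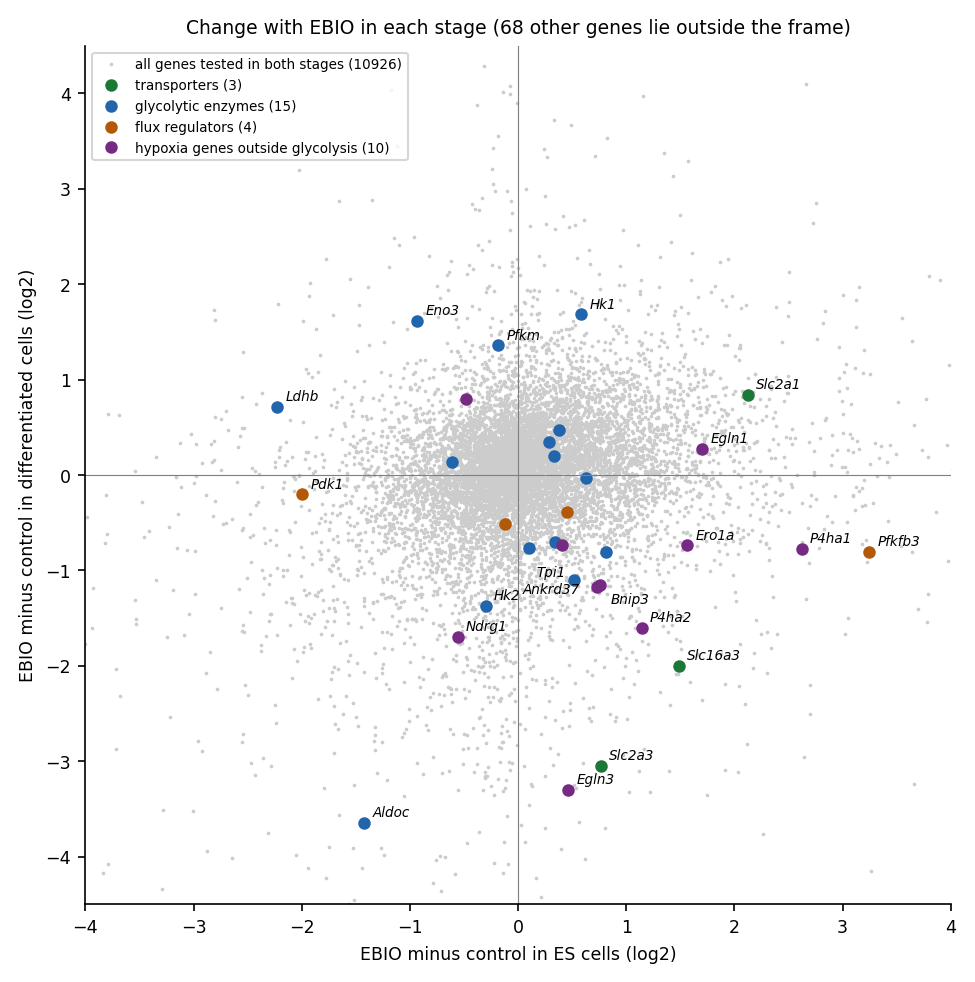
Difference with EBIO in ES cells (x axis) against that in differentiated cells (y axis), both on the log2 scale, for the 10926 genes tested in both stages (grey; 68 lie outside the frame) and the 32 members, coloured by role. The lower right field holds the 10 members that rose in ES cells and fell in differentiated cells, with P4ha1 and Pfkfb3 farthest right and Slc2a3 lowest among them. Of these, Slc16a3, Tpi1, Pdk3, P4ha2 and Ankrd37 lost their call in ES cells without certain single arrays.

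Pairs of isoforms show which relative moved more within the same arrays; only changes of their log2 ratio are given, since levels of different probe sets cannot be set against each other. The ratio of Ldhb to Ldha fell by 3.04 with EBIO in ES cells and rose by 1.52 in differentiated cells. The ratio of Hk2 to Hk1 changed by -0.89 in ES cells and -3.05 in differentiated cells, and that of Slc2a3 to Slc2a1 by -1.36 and -3.88. Muscle-type Pfkm changed against Pfkl by -0.81 in ES cells and 1.39 in differentiated cells. Aldoc changed against Aldoa by -1.76 and -3.85, and Egln3 against Egln1 by -1.24 and -3.58. Pdk3 gained 2.45 on Pdk1 in ES cells, while in differentiated cells the ratios of the groups overlapped, as did those of Pfkfb4 to Pfkfb3. The arrays of the groups did not overlap for the other changes given here, and no test was made of these ratios.

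The core sequence to which hypoxia-inducible factor binds, ACGTG or GCGTG, was looked for on both strands in the 300 bases from 250 before to 50 after each gene's RefSeq start (mouse build GRCm38.p6). CACGTG reads the same on both strands and so counts as 2 overlapping matches. Of 42 windows belonging to 30 members, 35 (83.3%) held a match, beside 43.8% of the 32851 windows of all genes. The member windows were richer in CG, with a median of 20 CG pairs beside 7. Windows of all genes within the central range of the members' CG counts (10.5 to 25.75) held a match in 65.0%. The members' own share within that range was not counted, so the 83.3% covers a wider range of CG counts. Slc2a3 and Ndrg1 had no window. The 160 bases before the start are given for Ldha and Ldhb, which ran opposite to each other, and for P4ha1 and Ankrd37, which rose in ES cells and fell in differentiated cells, with the matches in capitals.
Ldha, chr7:46845644-46845803 (+ strand): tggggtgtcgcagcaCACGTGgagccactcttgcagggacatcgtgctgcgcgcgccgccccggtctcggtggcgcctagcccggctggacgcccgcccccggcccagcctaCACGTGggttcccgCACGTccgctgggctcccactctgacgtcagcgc
Ldhb, chr6:142507958-142508117 (- strand): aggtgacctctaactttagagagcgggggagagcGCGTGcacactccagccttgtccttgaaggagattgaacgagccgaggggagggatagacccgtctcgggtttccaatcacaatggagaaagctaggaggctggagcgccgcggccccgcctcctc
P4ha1, chr10:59323136-59323295 (+ strand): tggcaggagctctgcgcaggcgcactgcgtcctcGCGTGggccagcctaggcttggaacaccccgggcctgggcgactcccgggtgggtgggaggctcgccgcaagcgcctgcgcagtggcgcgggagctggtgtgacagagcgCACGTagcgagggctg
Ankrd37, chr8:45999851-46000010 (- strand): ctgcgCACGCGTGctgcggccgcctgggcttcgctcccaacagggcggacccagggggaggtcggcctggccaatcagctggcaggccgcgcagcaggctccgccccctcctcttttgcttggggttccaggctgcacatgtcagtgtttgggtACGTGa
The Ldha stretch holds 5 matches, Ankrd37 3, P4ha1 2 and Ldhb 1. Where a gene had more than 1 start, the window with the most matches was used. For Ldha that window held 7 matches, and its other window held 2. A match describes letters in a window and was not measured as binding.

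The genes next to the pathway were read from further lists. Of 13 tested other isoforms of glycolysis and its transporters, none rose and 3 fell in ES cells, beside 23.5% and 21.2% of all genes, among them Tigar (-2.20), which lowers the activator made by Pfkfb3. In differentiated cells 7 rose and 4 of 13 fell, beside 33.3% and 32.6%: muscle-type Pgam2 rose by 2.79 and the insulin-responsive transporter Slc2a4 by 1.48, while Hk3 changed by -1.40 and Hkdc1 by -0.89. Of 10 tested genes for the entry of pyruvate into mitochondria, 7 fell and none rose in ES cells, beside 21.2% and 23.5% of all genes, led by the pyruvate carrier subunit Mpc1 (-1.42) and the kinase Pdk4 (-1.42). Pdk4 works against this entry, as a kinase of the same family as Pdk1 and Pdk3, and it entered the test only through the untreated arrays. In differentiated cells 9 of 11 rose and none fell, beside 33.3% and 32.6%, with Mpc1 at 0.98 and pyruvate carboxylase Pcx at 0.92. Pdk2 (0.83), a further kinase of that family, was among the 9. The change was higher in differentiated cells for 8 of the 11, beside 20.5% of all genes.

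Of 9 tested genes of the oxygen-sensing machinery, 3 rose in ES cells, beside 23.5% of all genes, namely Cited2 (2.19), a brake on hypoxia-inducible factor, Epas1 (1.21), which encodes a second factor subunit, and Vhl (1.09), which directs the factor to degradation. Hif3a changed by -0.43. In differentiated cells 4 of 10 rose, beside 33.3% of all genes, with Epas1 at 1.14 and Cited2 at 1.06, and 3 fell, beside 32.6%, with Hif3a at -0.70, Arnt2 at -0.54 and Hif1a at -0.46. Of further hypoxia-inducible genes, 7 of 22 rose and 5 fell in ES cells, with Plod1 at 1.92, Gbe1 at 1.87 and Kdm3a at -1.59, beside 23.5% and 21.2% of all genes. Gbe1 entered the test only through the arrays with EBIO. In differentiated cells 7 of 26 rose and 16 fell, with Ppp1r3c at 2.41 and, at the other end, the matrix gene Lox at -5.69 and Cxcr4 at -2.59, beside 33.3% and 32.6% of all genes. Cxcr4 entered the test only through the untreated arrays.

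**Figure D5:**
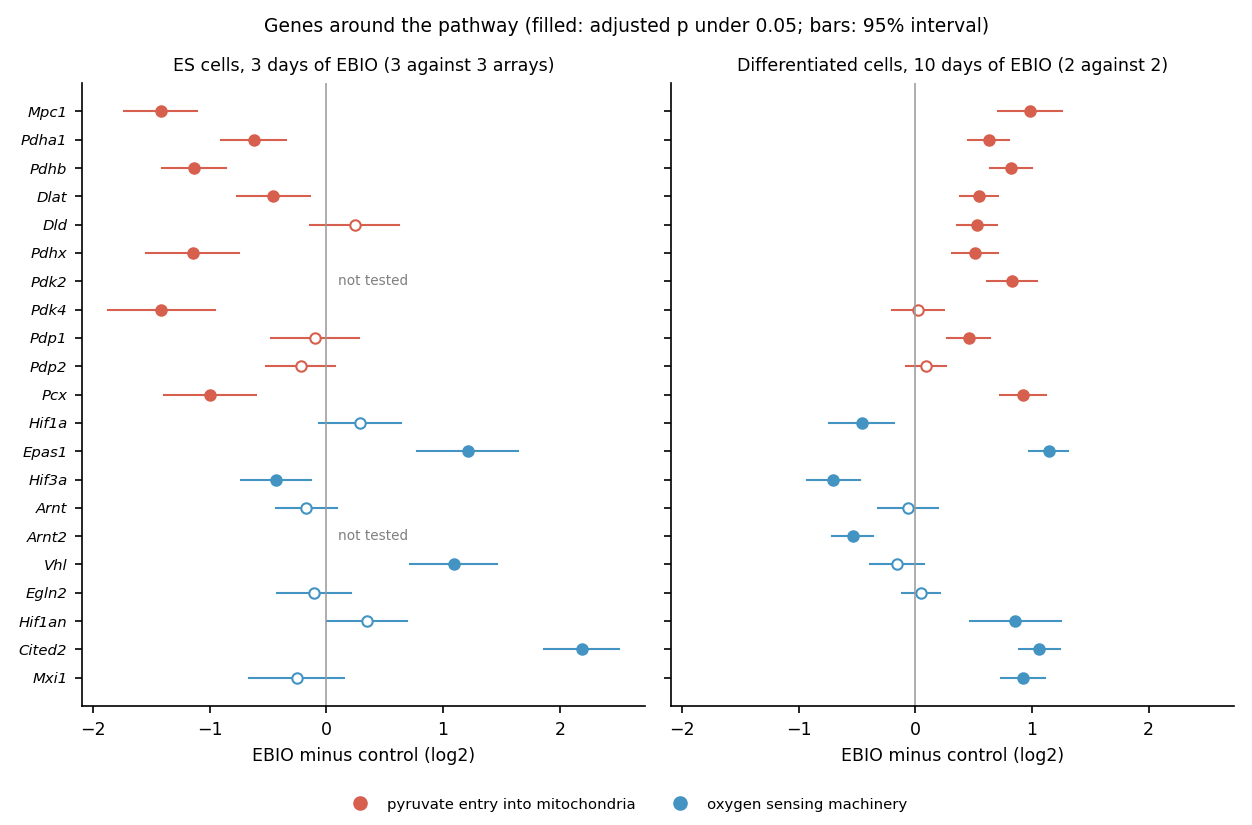
Difference between EBIO and control on the log2 scale for genes of pyruvate entry into mitochondria (red) and of the oxygen-sensing machinery (blue), in ES cells (left) and differentiated cells (right), with 95% intervals; filled points passed an adjusted p of 0.05. The pyruvate entry genes, which include the inhibitory kinases Pdk2 and Pdk4, lie mainly left of 0 in ES cells (7 fell) and right of it in differentiated cells (9 rose).

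In the pentose phosphate branch, 1 of 6 genes rose and 1 fell in ES cells (Pgd at 0.45, Tkt at -0.35), beside 23.5% and 21.2% of all genes. In differentiated cells 1 rose and 4 fell, beside 33.3% and 32.6%, with Taldo1 at 0.59 and Tkt at -1.36. Of 3 tested genes of gluconeogenesis, 1 fell in ES cells and 2 in differentiated cells, beside 21.2% and 32.6% of all genes, and none rose. Mitochondrial Pck2 fell in both stages, by 1.58 in ES cells, where the groups overlapped, and by 1.39 in differentiated cells. Fbp2 fell in differentiated cells (-0.37, adjusted p = 0.0305) and entered that test only through the untreated arrays.

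Without EBIO, several members stood higher in differentiated cells than in ES cells, given here with no test because the stages were normalized separately. The difference of levels was 4.87 for P4ha2, 4.73 for P4ha1 and 4.28 for Pfkfb3 on the deposited scale, where the array medians differ by 1.09. On the deposited scale the second probe set of Pfkfb3 went the other way, with means of 5.51 in ES cells and 4.67 in differentiated cells. After joint quantile normalization the difference was 3.48 for P4ha2, 3.30 for P4ha1, 3.09 for the chosen probe set of Pfkfb3, 1.88 for Egln1 and 1.87 for Egln3. Pfkl (-2.58), Pfkp (-2.21) and Pkm (-2.09) were lower in differentiated cells on that scale. In all, 8 members were at least 1 unit higher, 9 at least 1 lower and 15 within 1 unit.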

How the data were processed

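Total RNA of 10 samples was labelled with biotin and read on Affymetrix arrays of 45101 probe sets. The deposited values are log2 expression values that the authors made with RMA, per the submitters' processing notes; versions are not given in the sources used here. RMA compresses dim values. Quantiles of paired arrays differed, as a mean absolute value, by up to 0.0931 inside the ES set, by up to 0.0497 inside the differentiated set, and by 0.910 or more across the sets. The number of arrays limits the precision.

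Names came from the platform annotation, brought up to date by gene ID through a RefSeq table for 34754 of 34958 probe sets with 1 symbol. Genes entered a test if they lay above the array median on a number of arrays equal to the smallest group size or larger. limma 3.58.1 (R 4.3.3) was run without a block, on the arrays of 1 stage or, for the difference between stages, on all 4 groups, with Benjamini-Hochberg adjustment over all genes tested. The code was tested on simulated data. Members and lists were chosen with earlier results of these data known. All measured members are named, with values on every array where they passed; of each further list, the largest changes in each direction are named, and Vhl and Hif1a were added after their values were seen.

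The replicate number marks a shared passage in ES cells, where deviations of same-numbered arrays correlated at 0.326, 0.233 and 0.613; values with this block are given where they change a call. Alternatives were the filter, mean of probe sets, scaling, variance trend, block and leaving out arrays.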

Additional observations from a re-analysis of the deposited data

Results flagged for a closer look

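For 27 members the change with EBIO differed between the stages by a test of the difference itself (limma on the 4 groups, adjusted p under 0.05; all values are the effect in differentiated cells minus that in ES cells, log2). The difference was below 0 for the transporters Slc2a1 (-1.29), Slc2a3 (-3.81) and Slc16a3 (-3.49), and for the enzymes Hk2 (-1.07), Aldoc (-2.22), Tpi1 (-1.62), Pgk1 (-1.04), Pgam1 (-0.87) and Ldha (-1.61). It was above 0 for Hk1 (1.10), Pfkm (1.54), Pfkp (0.75), Eno3 (2.54) and Ldhb (2.94). Among the flux regulators it was -4.05 for Pfkfb3, 1.79 for Pdk1 and -0.84 for Pdk3. Among the hypoxia genes outside glycolysis it was -3.40 for P4ha1, -2.74 for P4ha2, -1.43 for Egln1, -3.77 for Egln3, -1.91 for Bnip3, -1.14 for Vegfa, -1.14 for Ndrg1, -1.91 for Ankrd37 and -2.30 for Ero1a, and 1.27 for Adm. Slc2a1, Hk1 and Aldoc moved the same way in both stages and differed in size, while the direction of Egln1 in differentiated cells depends on the probe set. The size for Pfkfb3 depends on the probe set too: its second one changed by 0.32 in ES cells and by -0.13 in differentiated cells. Vegfa, Adm and Pfkp lost the call without single arrays: Adm without any array but the passage 25 or 26 EBIO array and the passage 27 control of ES cells, Vegfa without the passage 25 control or any array of the differentiated cells, and Pfkp without the second array of either differentiated group. Vegfa also lost it with quantile normalization (adjusted p = 0.0723) and Adm with no filter on dim probe sets (0.0517).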

How the results depend on the processing

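Members higher with EBIO in ES cells numbered 14, between 9 and 14 when single arrays were left out (9 without the passage 25 EBIO array or the passage 26 control), 16 with quantile normalization, 18 with the replicate block, and 19 with median centring, with a variance trend or with the 4 groups together. Members lower there numbered 5, and 8 with the replicate block. Shares of all genes were not counted under the alternatives, so the number of called genes may have changed there for all genes alike. Of the 32 members, 17 kept their call in ES cells under every alternative listed in the methods, 26 in differentiated cells and 28 for the difference between stages. A stricter filter on dim probe sets removed some members from the test in each of these comparisons, and such a removal was not counted as a change. The replicate block changed no other call than those given beside the results, Egln1 in differentiated cells (adjusted p = 0.0812) and Pfkl for the difference between stages (-0.66, adjusted p = 0.00668); the numbers of the differentiated arrays mark nothing in the labels and their deviations correlated at -0.132. With these numbers crossed, an alternative chosen after seeing the data, 10 members were higher and 19 lower. When the probe sets of a gene were averaged, Egln1 in differentiated cells turned from 0.27 to -0.026 and Higd1a from -0.23 to 0.50 (adjusted p = 8.75e-04); the cause was not tested for Higd1a, and the probe sets of Egln1 differ in direction. With 2 arrays a group in differentiated cells, and dim values compressed by RMA, small differences and those of dim probe sets are the least certain.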
